A study of Mus musculus with 20 samples.

Results

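Gata4, Gata5 and Gata6 encode the 3 GATA zinc-finger transcription factors of heart and endoderm. They were picked by symbol, are 3 of the 22332 genes listed in at least 1 chromatin RNA library, and were chosen by name, as a gene family, with earlier results of these data known. They were followed in mouse embryonic stem cells (ESCs) and in cardiomyocyte cultures (CM) grown from such cells by way of embryoid bodies. Each was wild type (WT) or Mettl3-KO (KO), and all were of strain C57BL/6. METTL3 is the enzyme that writes N6-methyladenosine (m6A) on nuclear RNA. ATAC-seq, which maps open chromatin, had 12 libraries, 3 in each of the 4 groups. Sequencing of chromatin-associated RNA, enriched for transcripts still being made, and m6A mapping of that RNA had 1 library in each group and so no replicate check. It is not labelled whether the libraries of 1 group are separate cultures, whether a genotype was 1 clone, or which part of Mettl3 was removed. The p-values below therefore measure only the spread between these ATAC libraries, which may be technical.

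GATA factors bind the letters GATA in promoters and enhancers and can bind nucleosome-covered DNA. GATA4 and GATA6 act in early heart progenitors and in primitive and visceral endoderm. They work with NKX2-5, TBX5, TBX20, HAND2 and MEF2C on heart genes, while FOG proteins (ZFPM1 and ZFPM2) bind them as cofactors. GATA5 overlaps with both and is known in the endocardium and in gut epithelium. None of the 3 is a gene of the undifferentiated ESC state.

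Of the 3 genes, Gata5 has its promoter in the RefSeq promoter table of GRCm38.p6 used here, and it is shown because this stretch lay in open chromatin in every ATAC library while the RNA of the gene was listed only in CM. The 250 bases before the start in that table, chr2:180334680-180334929 on the minus strand, are printed 5′ to 3′ with motif matches in capitals. They lie inside the gene span given below, chr2:180325088-180335503, so this start is not an end of that span.
Gata5 promoter: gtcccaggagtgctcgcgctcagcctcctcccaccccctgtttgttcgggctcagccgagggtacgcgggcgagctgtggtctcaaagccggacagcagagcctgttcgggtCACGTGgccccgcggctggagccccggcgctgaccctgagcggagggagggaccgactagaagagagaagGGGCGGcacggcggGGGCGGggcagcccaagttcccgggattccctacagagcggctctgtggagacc
The capitals mark 1 match to CACGTG (an E-box) at bases -138 to -133 before the start and 2 matches to GGGCGG (a GC box) at -68 to -63 and -54 to -49. Both strands were searched. CACGTG occurs in 6.02% and GGGCGG in 32.7% of the 32851 promoters of the table over the same length. The GATA motif (AGATAA and AGATAG, or TGATAA and TGATAG), present in 26.5% of promoters, was not in these letters. Neither were TATAAA (12.4%) or CCAAT (33.8%). The GC content was 70.0%, above that of 90.8% of the promoters, whose median was 52.4%. These matches describe letters and not bound sites.

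Genome positions are on mm10 (GRCm38.p6). Gata4 spans chr14:63198914-63271712 (72799 bp), Gata5 spans chr2:180325088-180335503 (10416 bp) and Gata6 spans chr18:11052510-11085636 (33127 bp). The gene table gives no strand. As background, Gata4 and Gata5 are read toward lower coordinates and Gata6 toward higher ones. The noncoding Gata5os overlaps Gata5, and the noncoding Gata6os overlaps the low end of Gata6. The strandedness of the RNA libraries is not stated, so reads of these overlapping genes cannot be told apart.

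The RPKM (reads per kilobase of gene, scaled to library size) of Mettl3 was 1.73 and 1.28 in WT and KO ESCs, and 1.18 and 1.07 in WT and KO CM, so a whole-gene RPKM does not check the deletion. Of 8 cardiomyocyte markers, 8 were listed in CM WT and CM KO, with a summed level of 7.91 against 0.636 RPKM. In CM WT 7 of them reached 0.1 RPKM, and in CM KO 3 did. The same sum was 0.914 in ESC WT and 0.7 in ESC KO, where Ttn was highest at 0.641 and 0.491. The CM KO sum was thus not above those of the ESC libraries. The sums for endoderm markers (8 of 8 listed in both) were 16.8 in CM WT and 7.02 in CM KO. For fibroblast markers (7 of 7) they were 31.4 and 8.81, for smooth muscle markers (4 of 4) 4.16 and 1.89, and for blood markers (6 of 6) 41.4 and 45.2. Endothelial markers (5 of 5) summed to 2.93 in CM WT and 4.36 in CM KO. Markers of ESCs (5 of 6 listed) summed to 52.5 and 47.4 in WT and KO ESCs, and to 6.63 in CM WT and 10.4 in CM KO. In the ESC libraries the endoderm sums were 0.0435 in WT and 0.0599 in KO, with Foxa2, Afp, Ttr, Apoa1 and Amn listed in neither. The CM libraries were thus cultures of several cell types by their markers, not pure cardiomyocytes. The RNA libraries held an estimated 27900000 to 29800000 reads, and the ATAC lists 70132 to 119307 called intervals.

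In chromatin RNA, Gata4 and Gata6 were near the floor in ESCs and stood among the upper protein-coding genes of CM WT. Gata4 was at 0.027 and 0.0176 RPKM in WT and KO ESCs, and at 2.01 and 0.964 RPKM in WT and KO CM. Gata6 was at 0.0194 and 0.0226 RPKM in the former pair and at 2.09 and 1.64 in the latter. Gata5 was listed in neither ESC library and stood at 0.416 RPKM in CM WT and 0.172 in CM KO. For Gata4 and Gata6 both CM libraries were above both ESC libraries, and for all 3 genes CM KO was below CM WT. A gene that is not listed is not shown to be low, since Sox2, a core gene of ESCs, was listed in none of the 4 libraries. In CM WT, Gata4 and Gata6 lay at percentiles 92.9 and 93.3 of 15189 protein-coding genes and Gata5 at 48.4. In CM KO the order of the levels per length was Gata6, Gata4, Gata5, at percentiles 86.7, 71.6 and 32.6 of 14990.

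**Figure D1:**
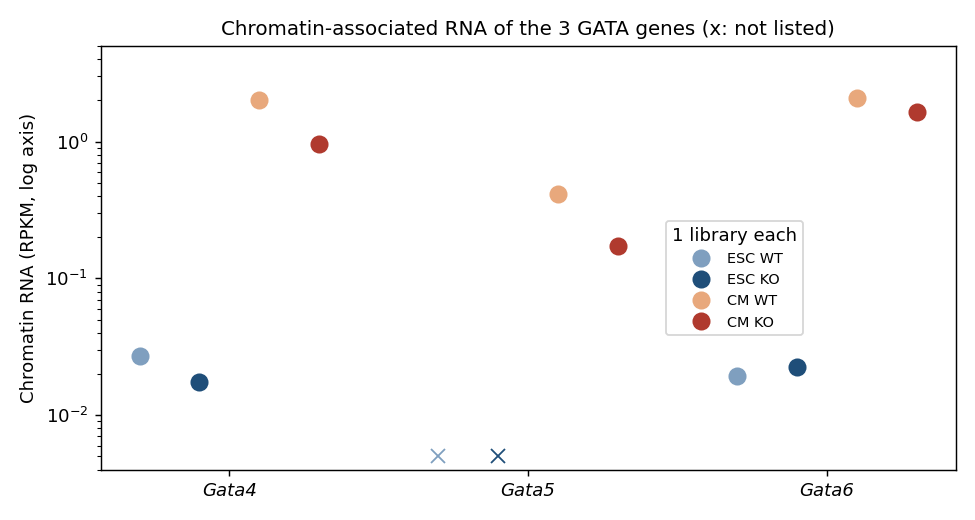
Chromatin-associated RNA of Gata4, Gata5 and Gata6 in RPKM on a log axis, 1 point for the 1 library of each group. Both CM points lie above both ESC points for Gata4 and Gata6, and the crosses mark that Gata5 was not listed in ESCs.

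Between WT libraries, Gata4 was 74.3-fold higher in CM than in ESC (56.9 to 98.6, a 95% Clopper-Pearson interval on about 4292 and 55 estimated reads). Gata6 was 107-fold higher (67.6 to 181, on about 2029 and 18 reads). These intervals cover counting error only and compare 2 libraries. Among 5763 genes at 1 RPKM or more in either library, 9.18% were higher in CM WT by 2-fold or more, and 19.3% lower. Of the GATA genes, 2 of 3 passed that filter, both through CM alone, so their direction was fixed by it. Their ratios lay at percentiles 99.5 and 99.6 of 4974 protein-coding genes.

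Between KO libraries, Gata6 was 72.6-fold higher in CM than in ESC (47.2 to 117), where 10.7% of 5447 genes were higher by 2-fold or more and 6.94% lower. It too passed the filter through CM alone. Gata4 was 54.8-fold higher (39.4 to 78.3) but stayed under 1 RPKM and outside the filter. In bulk cultures, fewer cells of a type and less RNA per cell cannot be told apart.

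Within ESCs the counting intervals of the KO to WT ratios included equal levels for both listed genes. The KO to WT ratio of Gata4 was 0.652 (0.416 to 1.01) and that of Gata6 was 1.16 (0.589 to 2.31). Neither gene reached 1 RPKM there. The background was 1.45% of 5173 genes higher by 2-fold or more and 1.7% lower.

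Within CM the KO library held less RNA of each gene, by unequal amounts. The KO to WT ratio was 0.48 for Gata4 (0.456 to 0.506), 0.413 for Gata5 (0.293 to 0.571) and 0.785 for Gata6 (0.735 to 0.839). Gata4 was the 1 member called at least 2-fold lower, Gata6 was in the filter and not called, and Gata5 lay below the filter. Gata4 passed the filter through CM WT alone, so its direction was fixed by it. Of 5105 genes, 1.68% were called lower by that rule and 2.9% higher. The median log2 ratio of those genes was 0.21, so all 3 members lay below it. With 0.1 or 1 RPKM added before the ratio, Gata4 missed 2-fold, at log2 ratios of -0.99 and -0.62. The level of Gata4 relative to Gata6 was 0.963 in CM WT and 0.589 in CM KO. Relative to Gata5, Gata4 stood at 4.83 in CM WT and 5.62 in CM KO, while Gata6 stood at 5.02 and 9.54. The sums of the cardiomyocyte, endoderm, fibroblast and smooth muscle markers given above were also lower in CM KO, and those of the ESC, endothelial and blood markers higher. The blood markers were split. Hbb-bh1 (12.5 RPKM in CM WT and 28.0 in CM KO), Hba-x and Gata1 were higher in CM KO. Hbb-y (18.2 and 5.94), Ptprc and Csf1r (0.537 and 0.034) were lower. The part of these cell types in the ratios of the GATA genes was not tested.

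Gata4 lies on chromosome 14, as Mettl3 does, and in the KO libraries this chromosome was low as a whole. Its share of ATAC intervals was 3.86%, 3.82% and 3.81% in ESC WT against 3.19%, 3.19% and 3.2% in ESC KO. In CM WT it was 3.89%, 3.84% and 3.85%, against 3.21%, 3.27% and 3.25% in CM KO. The WT and KO groups did not overlap in either cell type. The log2 ratios of the mean shares, -0.26 in ESCs and -0.25 in CM, were the lowest of 20 chromosomes. Other chromosomes also had WT and KO groups that did not overlap. Among them, chromosome X was the highest of 20, at 0.16 in ESCs and 0.27 in CM, and chromosome 17 stood at -0.11 in both. In bins of 5 Mb, 25 of 25 bins of chromosome 14 were lower in ESC KO and 23 of 25 in CM KO. In chromatin RNA, the median log2 KO to WT ratio of its genes in ESCs was -0.51, the lowest of 20, against -0.14 for genes of the other chromosomes. In CM it was -0.06 against 0.21, the second lowest after chromosome 17 at -0.105.

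**Figure D2:**
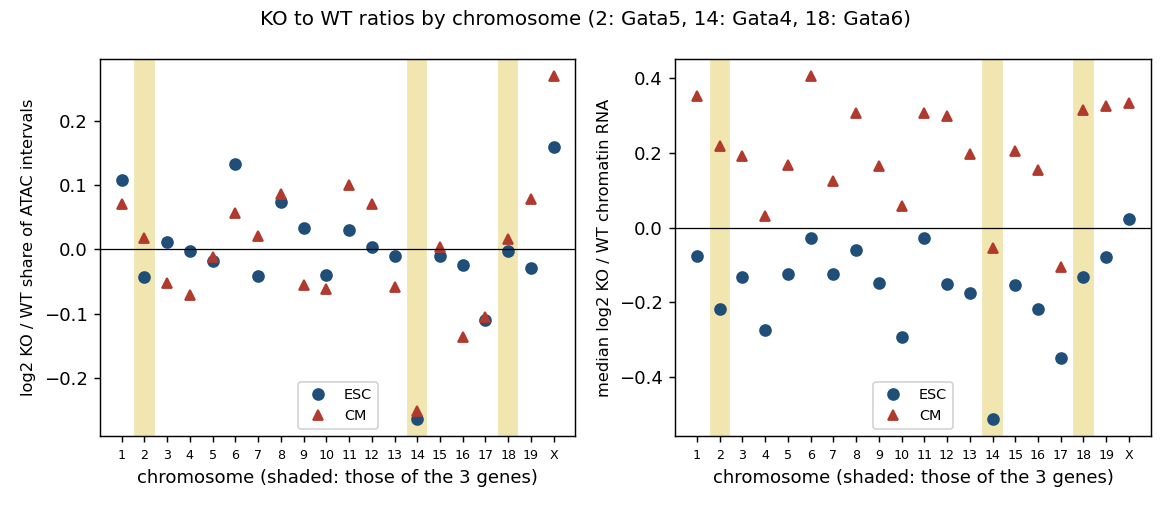
Left, log2 ratio of the mean share of ATAC intervals, KO over WT (3 libraries a group), and right, median log2 KO over WT ratio of chromatin RNA (1 library a group), for each chromosome in ESC (circles) and CM (triangles). Chromosome 14, which holds Gata4, is lowest on the left in both cell types, while chromosomes 2 (Gata5) and 18 (Gata6) lie near 0 there.

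Set against its own chromosome, the KO to WT log2 ratio of Gata4 in ESCs went from -0.62 to -0.10. In CM it was -1.06 against all reads and -1.004 relative to chromosome 14. Gata6 stood at -0.35 in CM and at -0.66 relative to chromosome 18, and Gata5 at -1.28 and -1.50 relative to chromosome 2. The CM ratios thus kept their direction on this scale. Whether the low level of chromosome 14 contributes to the values of Gata4 was not tested.

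Open chromatin was counted as called ATAC intervals in each gene plus 10 kb on both sides. One open stretch can be called as 1 interval or as several, so a count also depends on splitting. In ESC KO replicates 1 and 3, for example, 1 region of Gata5 was called as 2 intervals and counted as 2. The window of Gata4 held 10, 11 and 11 intervals in the ESC WT libraries and 10, 7 and 10 in ESC KO, then 11, 13 and 9 for CM WT and 7, 9 and 5 for CM KO. The window of Gata5 held 2, 2 and 2, then 3, 2 and 3, then 3, 4 and 4, and 3, 3 and 4 in the same order of groups. The window of Gata6 held 4, 5 and 4, then 3, 4 and 5, then 3, 2 and 4, and 4, 4 and 3. Only Gata5 had WT groups that did not overlap, with every CM WT library above every ESC WT library. For Gata4 and Gata6 all pairs of groups overlapped or touched, except that CM KO lay below ESC WT for Gata4.

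**Figure D3:**
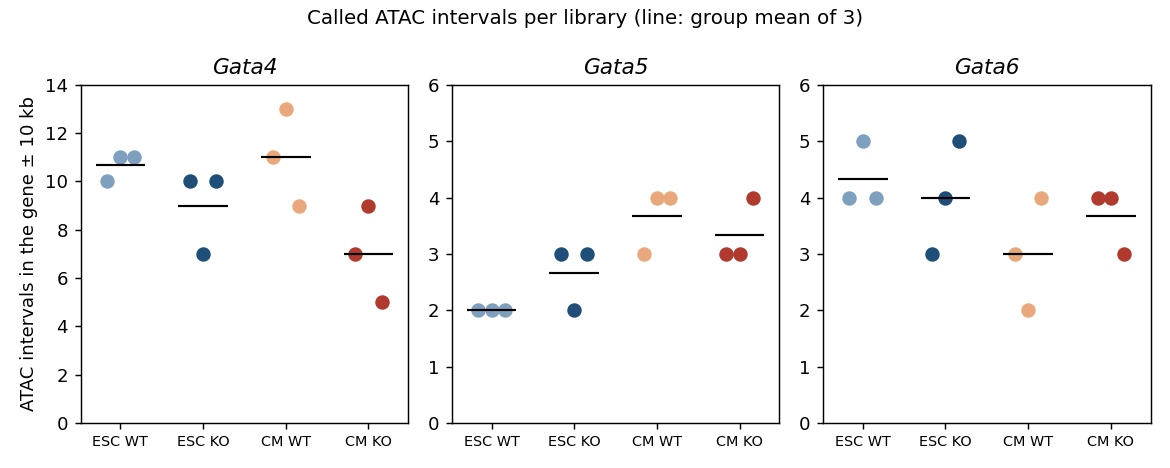
Called ATAC intervals in each gene plus 10 kb, 1 point per library and a line at the mean of 3 libraries. Gata5 sits at 2 in every ESC WT library and at 3 or 4 in CM WT, and Gata4 is lowest in CM KO, at 5 to 9.

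Counts were compared with limma on log2(intervals + 1) over 18721 protein-coding genes, with Benjamini-Hochberg adjustment. In the WT comparison Gata5 was the 1 member that passed, at a log2 difference of 0.63 ± 0.14 (SE, n = 3 and 3, limma adjusted p = 0.0100), higher in 3 of 3 CM libraries. The background was 4.13% of genes higher and 30.2% lower. This call depended on the measure. In the gene without flanks the difference was 0.00, and in covered base pairs it was 0.10 (limma adjusted p = 0.612). Gata4 differed by 0.03 ± 0.20 (limma adjusted p = 0.993) and Gata6 by -0.44 ± 0.21 (limma adjusted p = 0.130). These values depended on list length too. With lists cut to equal length, Gata4 was at 0.65 (limma adjusted p = 0.0186) and Gata6 at 0.86 (0.014), both past the threshold. At no other setting did either pass. Relative to the intervals called in the whole library, which were fewer in CM, Gata5 differed by 0.97 and stayed past the threshold. With lists cut to equal length it was 0.42 (adjusted p = 0.0827), among peaks at a −log10 q of at least 3 it was 0.52 (0.0738) and in the gene plus 50 kb 0.20 (0.0954), all by limma and none past the threshold.

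Between KO groups no member passed, where 0.689% of genes were higher and 43.5% lower in CM KO than in ESC KO. The log2 differences were -0.34 for Gata4 (limma adjusted p = 0.203), 0.25 for Gata5 (0.180) and -0.09 for Gata6 (0.769). This depended on the measure. In the gene plus 50 kb, Gata4 passed at -0.50 (limma adjusted p = 0.0167) and Gata5 at -0.38 (0.00608). Scaled to the intervals of the library, Gata5 passed in the other direction, at 0.89 (0.000882). With lists cut to equal length Gata6 passed at 0.91 (0.0227). Between ESC KO and ESC WT no member passed either, with 0.422% of genes higher and 0.369% lower. There the differences were -0.24 for Gata4 (limma adjusted p = 0.773), 0.28 for Gata5 (0.516) and -0.11 for Gata6 (0.954).

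Between CM KO and CM WT, Gata4 had the largest difference of the 3, -0.60 ± 0.20 on the log2 scale (limma unadjusted p = 0.0158, adjusted p = 0.110), and did not pass. The background was 0.897% of genes higher and 7.72% lower. The bases covered by its intervals were 4136, 5735 and 4493 bp in CM WT and 3285, 3579 and 2762 bp in CM KO. These groups did not overlap, and on this measure the difference of -0.56 passed (limma adjusted p = 0.0175). It also passed in the gene plus 50 kb (-0.91, adjusted p = 0.00645) and among peaks at a −log10 q of at least 3 (-0.73, adjusted p = 0.0145). The CM KO lists were shorter, with 70132 to 76381 intervals against 85443 to 94617 in CM WT, and relative to the intervals of chromosome 14 in the same library the difference was -0.07 (limma adjusted p = 0.812). Gata5 differed by -0.11 (adjusted p = 0.713) and Gata6 by 0.25 (adjusted p = 0.547). In the gene plus 50 kb Gata5 passed, at -0.62 (limma adjusted p = 0.00427). In covered base pairs Gata6 had the other sign, at -0.21 (limma adjusted p = 0.335). The KO effect did not differ past the threshold between cell types for any member, with limma adjusted p-values of 0.568 for Gata4, 0.324 for Gata5 and 0.592 for Gata6, where 0.705% of genes passed as higher and 3.66% as lower. In the gene plus 50 kb it did for Gata5, at -0.585 (limma adjusted p = 0.0367).

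The intervals of all 12 libraries merged into 24 regions in the 3 windows, 15 at Gata4, 4 at Gata5 and 5 at Gata6. Of these, 7 were called in 12 of 12 libraries, against 21.1% of the 193427 regions of the genome. The summit fold is the authors' enrichment of a peak over its local background and here describes a peak within its own library. No change is read from summit folds or percentiles of different libraries.

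The regions open in every library included those at or near the starts of Gata5 and Gata6. For Gata4, the region across the upstream end of its span, given below, was called in CM WT libraries only. The promoter table had no start for Gata4, so that end is not shown to be the start in use. A start may also lie inside the gene, where regions named below were called in all 12 libraries. At Gata5, chr2:180333806-180335055 (1250 bp) held the whole promoter printed above. In ESC KO replicates 1 and 3 and in CM KO replicate 3 it consisted of 2 intervals with a gap between them. Its summit folds were 10.7, 8.47 and 7.41 in ESC WT, then 7.3, 6.63 and 6.97 in ESC KO. They were 7.15, 7.57 and 6.55 in CM WT and 5.23, 7.44 and 6.95 in CM KO. It was thus called also in the ESC libraries, where no RNA of Gata5 was listed. At Gata6, chr18:11052034-11053403 (1370 bp) lay across the low end of the gene, in reach of Gata6os, with summit folds of 4.26 to 5.22 in ESC WT, 4.36 to 4.91 for ESC KO, 4.46 to 6.15 for CM WT and 4.81 to 5.82 for CM KO. Inside Gata4, chr14:63245094-63246628 (1535 bp), chr14:63240167-63241127 and chr14:63255326-63256389 were called in all 12 libraries. The other such region of the Gata4 window, chr14:63193319-63194163, lay on the neighbouring DNA repair gene Neil2. The last was chr2:180320047-180320625, below Gata5, with summit folds of 8.38 to 11.8 in the ESC WT libraries.

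Between a starting and a final group, a region was called opened where all 3 libraries of the final group and none of the starting group held it, and closed where the opposite was true. From ESC WT to CM WT, 5 regions were opened and 2 closed, against 5.83% and 11.5% of all regions. Of windows of protein-coding genes, 21.3% held an opened and 44.4% a closed region, and all 3 members had an opened one. With 3 libraries against 3 no exact test can go below p = 0.1, so these are descriptions.

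The region of Gata6 that opened lay inside the gene at chr18:11077877-11078609 (733 bp), 25733 bp from the low end, and was called in 6 of 6 CM libraries and 0 of 6 ESC libraries. Its summit folds were 9.1, 9.61 and 10.1 in CM WT and 8.64, 8.83 and 10.4 in CM KO, at percentiles 83.1 to 93.3 of the intervals of their libraries. It was called opened in both genotypes, where 0.948% of all regions were opened and 9.74% closed from ESC KO to CM KO. In that comparison 4.88% of windows held an opened and 39.7% a closed region.

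The region of Gata5 that opened lay below the gene, on its downstream side, at chr2:180322591-180323266. It was also called in 6 of 6 CM libraries and in no ESC library. Its summit folds were 4.32, 5.44 and 4.91 in CM WT and 3.2, 2.69 and 3.68 in CM KO, at percentiles 42.4 to 65.8 and 1.47 to 22.8 of their own libraries. With peaks at a −log10 q of at least 3, or an equal number of intervals per library, it was not called opened in KO.

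At Gata4, 3 regions opened in WT. The region chr14:63247703-63248022 inside the gene had summit folds of 3.62, 3.14 and 3.44 in the CM WT libraries. The region chr14:63271500-63271834, across the high and upstream end of the gene, had folds of 3.24, 4.57 and 4.03. Both were called in 3 of 3 CM WT libraries and in none of the other 9, so they were opened in WT, not opened in KO, and counted as closed from CM WT to CM KO. The third, chr14:63195902-63196191 below the gene, was also called in 2 ESC KO libraries and 1 CM KO library. These were weak peaks, at percentiles 6.78 to 51.9 of the intervals of the CM WT libraries. Another region inside the gene, chr14:63222140-63222439, was called in 2 CM WT libraries and in none of the other 10, with summit folds of 4.86 and 5.94, and so met neither definition. With lists cut to equal length, 1 region was opened between WT groups in place of 3. From CM WT to CM KO, 3.74% of all regions and 17.3% of gene windows were closed in this sense, while 0.754% of regions and 4.55% of windows were opened. With peaks at a −log10 q of at least 3, or an equal number of intervals per library, the count of closed regions was 1 in place of 2.

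Gata4 also had the 2 regions that closed from ESC WT to CM WT, chr14:63237139-63237485 and chr14:63268045-63268980 inside the gene. The former was called in 3 ESC WT and 2 ESC KO libraries and in no CM library. The latter was called in all 6 ESC libraries, with summit folds of 2.74 to 4.53, and in 1 CM KO library. With lists cut to equal length neither was called closed. Between ESC KO and ESC WT no region of any member was opened or closed, against 1.25% and 1.37% of all regions and 6.78% and 8.41% of windows.

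**Figure D4:**
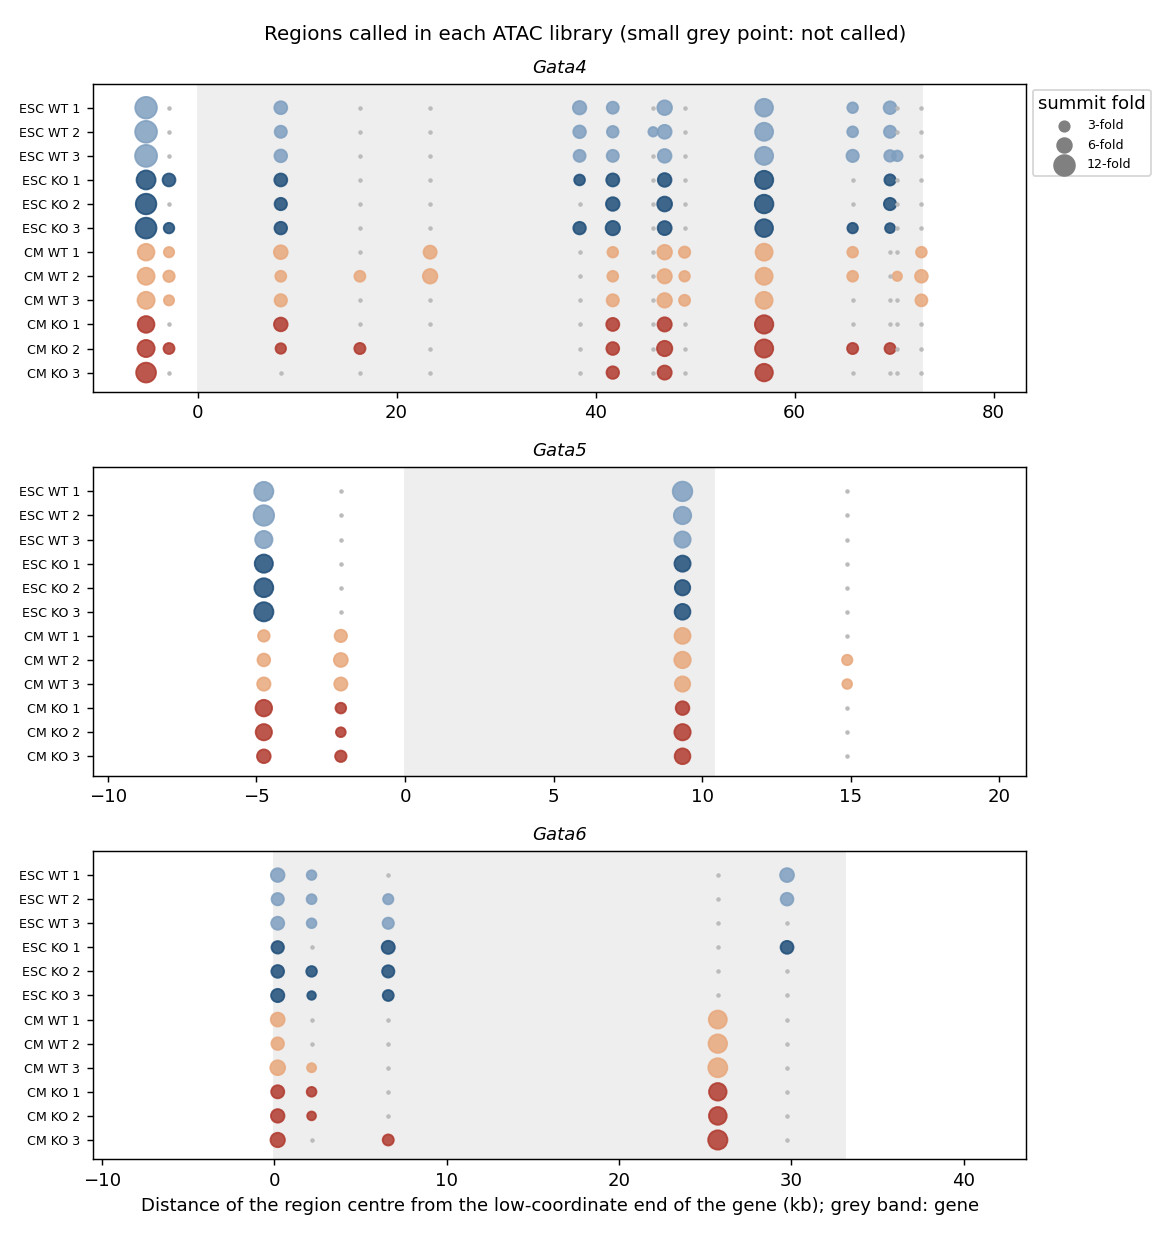
Merged regions in the windows of the 3 genes by ATAC library, with the distance of the region centre from the low-coordinate end of the gene in kb, the gene as a grey band, and the point area in proportion to the summit fold. The Gata6 region at about 26 kb appears in all 6 CM libraries and in no ESC library, and the 2 Gata4 regions called in all 3 CM WT libraries and in no other library are absent from CM KO.

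m6A was listed for the 3 genes in CM only. The lists of ESC WT and ESC KO held no position in any of them. CM WT listed 8 positions in Gata4, 2 in Gata5 and 4 in Gata6, and CM KO listed 1, 0 and 3. Of the protein-coding genes listed in chromatin RNA, 35.4% had a position in WT ESCs and 35.1% in KO ESCs, and 47.2% in WT CM and 31.3% in KO CM. The lists give no signal, so a position is present or absent, and a list can hold more positions of a gene where its RNA is more abundant.

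Positions count from the 5′ end of the gene to the first of the 4 listed bases. In Gata4 the listed positions were 26494, 30151, 30323, 36683, 51835, 71446, 71622 and 72296. Of these, 3 lay in the last 10% of the gene, and 30323 was on both lists. In Gata6 they were 1892, 32064, 32250 and 32507, with 3 in the last 10%, and all but 32250 were on both lists. Gata5 had 8025 and 8271, neither in the last 10%. Over all genes, 32.4% of CM WT positions lay in the last 10% of their gene.

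Of all CM WT positions, 35.6% were on the CM KO list too, and of all CM KO positions 65.3% were on the CM WT list. Of genes on the CM WT list, 75.9% had fewer positions in CM KO, and the 3 members were on that side. Gata4, with 1 of 8 positions shared, also had 2092 estimated reads in CM KO against 4292 in CM WT, and Gata6, with 3 of 4 shared, had 1617 against 2029. Gata5 had 53 against 127. The part of RNA level in these lists was not tested. Over all genes the lists held 16983 positions in ESC WT and 18076 in ESC KO, and 25617 in CM WT and 13962 in CM KO. The ESC KO list was thus longer than that of ESC WT, so the lists do not check the loss of METTL3.

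**Figure D5:**
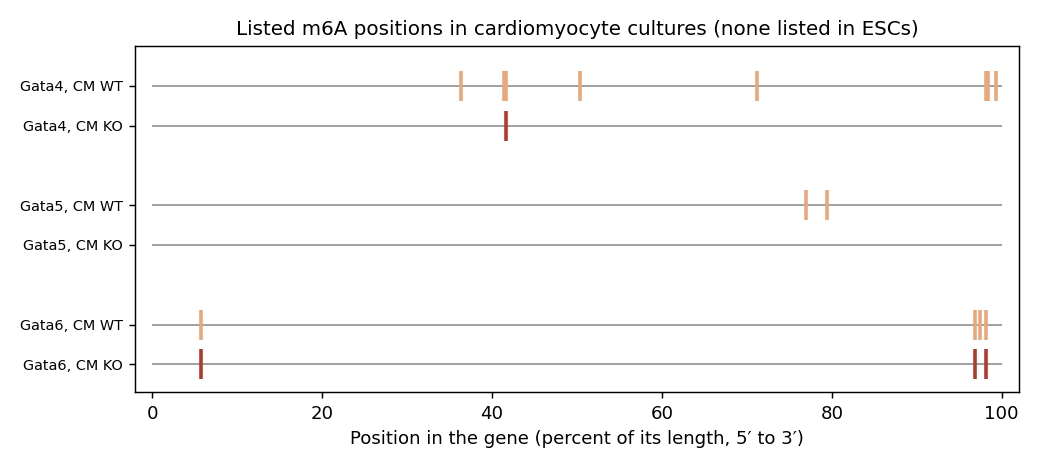
Listed m6A positions along each gene as a percent of its length from 5′ to 3′, 1 line for the 1 list of CM WT and 1 for that of CM KO. Gata6 has 3 of its 4 positions on both lists and Gata4 1 of 8, and Gata5 has none in CM KO.

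The wider GATA network was counted from lists of related genes, drawn up with earlier results of these data known, as ratios between 2 libraries with no test. From ESC WT to CM WT, the other 3 GATA genes stayed under 1 RPKM. Gata1 was 8.08-fold higher (2.6 to 28.7) and Gata3 6.9-fold higher (4.6 to 10.9), while Gata2 was not listed in ESC WT. Gata1 and Gata2, of blood cells, reached 0.0614 and 0.114 RPKM in CM WT, and Gata3 reached 0.209. In CM KO they stood at 0.0962, 0.293 and 0.308, each above CM WT where Gata4, Gata5 and Gata6 were below. The KO to WT ratio in CM was 2.58 for Gata2 (1.80 to 3.73) and 1.47 for Gata3 (1.22 to 1.77). For Gata1 it was 1.57, with an interval of 0.996 to 2.57 that includes equal levels.

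Of 10 listed GATA partners and cofactors, 9 were lower in CM KO than in CM WT and 1 was higher, at a median log2 ratio of -0.75 against 0.07 for all listed genes. None of the 3 in the filter was 2-fold lower. The counting intervals of Nkx2-5 (0.159 to 1.2) and Isl1 (0.673 to 1.07), both among the 9, included equal levels. Tbx20, a T-box partner, stood at 0.0314 and 0.02 RPKM in WT and KO ESCs and at 2.01 and 1.78 RPKM in WT and KO CM. Hand2 was at 1.76 and 0.929 RPKM in CM WT and CM KO, and Srf, a factor of muscle genes, at 0.893 and 0.586. The coactivator Ep300 was the 1 gene higher, at 2.07 and 2.33. Zfpm1 was not listed.

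Of 8 listed cardiac target genes, 7 were lower in CM KO (median log2 ratio -2.92, against 0.07 for all listed genes). In the filter, 4 of 4 were at least 2-fold lower, against 1.68% of all 5105 genes in it. Those 4 passed the filter through CM WT alone, so their direction was fixed by it. Myh6, the heavy chain of cardiac myosin, went from 1.27 to 0.0322 RPKM, a ratio of 0.0254 (0.0163 to 0.0376). Slc8a1, the exchanger of sodium for calcium, was at 1.86 and 0.233, and cardiac actin Actc1 at 1.9 and 0.0962. These genes were further apart between the CM libraries than any of the 3 GATA genes. Tnni3, named because it was the 1 gene not lower, had a ratio of 1.02 (0.525 to 2.05). Of the 7 lower genes, Gja5 rests on about 5 and 8 reads, at 0.636 (0.159 to 2.14). Nppa and Nppb were not listed.

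Of 12 endoderm target genes, 11 were lower in CM KO (median log2 ratio -1.22, against 0.07 for all listed genes). In the filter, 4 of 5 were at least 2-fold lower, against 1.68% of all 5105 genes in it. Of those 4, Ttr, Afp and Dab2 passed it through CM WT alone and Apob in both libraries. Apob, a lipoprotein gene of visceral endoderm, stood at 10.3 and 4.21 RPKM in CM WT and CM KO. Ttr, which carries thyroid hormone, was at 1.98 and 0.757 RPKM, and Col4a1, of basement membranes, at 1.92 and 1.23. Sox7, an F-group SOX factor also known in endothelium, was the 1 gene higher, at 0.456 against 0.169 RPKM, and was named for that after its values were seen. Of the 11 lower genes, the counting intervals of Sox17 (0.618 to 1.05) and Foxa2 (0.609 to 1.27) included equal levels.

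Of 9 upstream signals, 8 were higher in CM KO and 1 lower, with none of the 4 in the filter at least 2-fold apart. Their median log2 ratio was 0.45 against 0.07 for all listed genes, and in the filter 0.36 against 0.21. One of the 8, Mesp1, rests on about 3 and 2 reads. The counting intervals of the gene T (0.897 to 1.64) and of Nodal (0.753 to 1.14) included equal levels. Bmp2, a ligand known to induce Gata4 in heart mesoderm, stood at 2.13 RPKM in CM KO and 1.35 in CM WT. Smad4, the shared mediator of such signals, was at 2.67 and 2.42 RPKM. Nodal was the 1 gene lower, at 0.814 and 0.877 RPKM.

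Across the 4 RNA libraries, the genes most like each member were ranked by Euclidean distance of centred log2(RPKM + 0.1) over 5244 genes. Nearest to Gata6 were Tbx20 (distance 0.17), Pcdh7 (0.25) and Igfbp5 (0.25). Nearest to Gata4 were Adamts1 (0.20), Pkdcc (0.36) and Zim1 (0.43). These genes were picked by the same levels, so a direction shared with the member comes with the choice. Gata6 ranked 9 for Gata4, at a distance of 0.62. Gata5 could not be ranked, since it was not listed in ESCs.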

How the data were processed

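Samples were grouped by their titles. The members and gene lists were chosen with earlier results of these data known. Named genes were the 3 members, of each list the 2 to 4 with the highest RPKM, and the 3 nearest genes by distance. Ttr, Afp and Dab2 are also named as genes of a count, and Tnni3, Sox7, Mesp1, Sox2, Ttn and the blood markers after their values were seen. Per the submitters' processing notes, HISAT2, MACS2, Picard, Bowtie and cutadapt were used with build mm10; the sources used here give no roles, versions or settings.

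The deposited ATAC peak lists, 1 per library in the narrowPeak layout, hold the authors' score, the fold enrichment of the summit (a ratio), and the −log10 p and −log10 q values. Summits of 1 interval were joined. Windows were RefSeq genes of GRCm38.p6 plus 10 kb. Genes with an interval in at least 3 libraries (18721 of 21887) were tested with limma 3.58.1 in R 4.3.3 on log2(intervals + 1), over all 12 libraries with 4 group means, at an adjusted p of 0.05. The test was checked on simulated data. Merging intervals that share at least 1 bp gave 193427 regions. CM KO replicate 3 is labelled as RNA but holds a peak list like the others and was used.

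The deposited chromatin RNA files hold the authors' RPKM per Ensembl identifier, 99.5% to 99.6% of which matched a symbol. RPKM are not counts, so no count test was run. Read numbers were estimated from the spacing of low RPKM, where 54.5% to 56.6% of low genes lay within 0.05 of a whole read, and are approximate. A gene not listed gets no fold. The m6A lists hold the authors' positions within genes, in no unit of signal. At the offset used, 216 of 532 positions that could be compared matched the listed bases, against at most 10 at other offsets. Alternatives were the window, peak threshold, equal list lengths, scaling, pseudocounts, the filter, the test, each library left out, and 2 scalings by chromosome added after seeing the data. Python 3.11.15 was used.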

Additional observations from a re-analysis of the deposited data

Results flagged for a closer look

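Gata6 differed in direction between the cell types in chromatin RNA. Its KO to WT ratio was 1.16 in ESCs (0.589 to 2.31) and 0.785 in CM (0.735 to 0.839). The ESC ratio rests on about 21 and 18 estimated reads and its interval includes equal levels. With 1 library a group the difference was not tested.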

How the results depend on the processing

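Of 165 alternatives to the 15 comparisons of interval counts with no library left out, 123 kept direction and side of the threshold; most differences were small and not past it. Log2 differences of those that did not are given by setting, and unless a value is named the cause was not tested. In covered base pairs, CM KO against CM WT was -0.557 for Gata4 (now past the threshold) and -0.214 for Gata6, CM KO against ESC KO was -0.169 for Gata5 and 0.289 for Gata6, CM WT against ESC WT was -0.033 for Gata4, 0.095 for Gata5 (no longer past) and 0.012 for Gata6, and ESC KO against ESC WT was -0.085 for Gata5. In the gene plus 50 kb, CM KO against CM WT was -0.911 for Gata4 and -0.621 for Gata5 (both now past) and -0.520 for Gata6, CM KO against ESC KO was -0.497 for Gata4 and -0.380 for Gata5 (both now past), CM WT against ESC WT was 0.205 for Gata5 (no longer past) and 0.348 for Gata6, ESC KO against ESC WT was -0.036 for Gata5, and the KO effect in CM minus that in ESC was -0.585 for Gata5 (now past) and -0.501 for Gata6. In the gene without flanks, CM WT against ESC WT was -0.111 for Gata4 and 0.0 for Gata5 (no longer past), CM KO against CM WT was 0.195 for Gata5, and CM KO against ESC KO was -0.195 for Gata5. With peaks at a −log10 q of at least 3, CM KO against CM WT was -0.725 and CM KO against ESC KO -0.390 for Gata4 (both now past), the latter was -0.031 for Gata5 and 0.031 for Gata6, and CM WT against ESC WT was 0.522 for Gata5 (no longer past). With lists of equal length, CM WT against ESC WT was 0.649 for Gata4 and 0.862 for Gata6 (both now past) and 0.415 for Gata5 (no longer past), CM KO against ESC KO was 0.314 for Gata4 and 0.912 for Gata6 (now past), and ESC KO against ESC WT was 0.195 for Gata6. Scaled to the intervals of the library, CM KO against ESC KO was 0.311 for Gata4, 0.894 for Gata5 (now past) and 0.561 for Gata6, and CM KO against CM WT was 0.171 for Gata5. Scaled to the chromosome, these 4 values were 0.287, 0.831 (now past), 0.481 and 0.154. By the exact permutation test, whose smallest p is 0.1 for 3 against 3, Gata5 at 0.630 between WT groups had p = 0.1.

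Leaving out each library in turn, 175 of 180 values kept direction and side of the threshold. Gata5 between WT groups ranged from 0.576 to 0.737 (limma adjusted p of 0.00522 to 0.0329). The sign changed for Gata4 between WT groups (-0.090 to 0.153, negative without ESC WT replicate 1 or CM WT replicate 2), Gata6 between KO groups (-0.239 to 0.054, positive without ESC KO replicate 3 or CM KO replicate 3) and Gata6 in ESC KO against ESC WT (-0.249 to 0.044, positive without ESC KO replicate 1). With the replicate block, Gata5 between WT groups was 0.630 (limma adjusted p = 0.0142), and no call for a member changed. Libraries of the same number correlated at -0.0238 to 0.0149 over 18 pairs, and 12 of 36 matched their own number best. These values show no pairing by number but cannot exclude one, and the labels do not say what a number shares.

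Counts of opened or closed regions kept within 1.5 times in 84 of 96 cases. With lists of equal length, Gata4 had 1 opened and 0 closed regions between WT groups and 1 closed from CM WT to CM KO, and Gata5 had 0 opened between KO groups. At a −log10 q of at least 3 these last counts were 1 and 0, and Gata6 had 1 closed between WT groups. Where 2 of 3 libraries sufficed, Gata5 had 2 opened and Gata6 2 closed between WT groups, Gata4 had 1 closed between KO groups and 1 opened in ESC KO, and Gata5 had 1 closed in CM KO. In chromatin RNA, the log2 ratio between WT libraries was 6.636 for Gata4 with a median ratio of 1, 6.637 relative to chromosome 14, 1.55 with 1 RPKM added and 4.052 with 0.1 RPKM added. For Gata6 the last values were 1.598 and 4.194. Between KO libraries they were 0.949 and 3.178 for Gata4 and 1.367 and 3.826 for Gata6. For CM KO against CM WT, a median ratio of 1 gave -1.264 for Gata4 and -0.555 for Gata6, and 1 RPKM added gave -0.615, -0.273 and -0.226 for Gata4, Gata5 and Gata6. Relative to chromosome 18, Gata6 was at -0.664. The m6A window of the gene plus 10 kb was not run, since listed positions lie within genes. Peak lists without reads, and 18 to 55 estimated reads in ESCs, limit the precision.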
